A study of Sus scrofa with 36 samples.

Results

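The comparison set the 3 libraries of pig induced pluripotent stem cell (iPSC) clone 1 against the 4 libraries of clone 2, and it covered all genes tested. These 7 libraries are replicates 2 to 4 of clone 1 and replicates 1 to 4 of clone 2, chosen by their column names from the 36 bulk RNA-seq libraries of the series. The series, whose title calls the cells transgene-free, compares clonal iPSC lines with fibroblasts and follows their differentiation. The library protocol was LM-seq, a ligation-mediated method. Clone 1 is labelled PiPS-EP1 minusPD c4 p11, and clone 2 is labelled PiPS-EP5 minusPD minusA83 c12 p10. Both are labelled pig iPS cells, and no age, treatment time or further agent is given for either. The labels thus differ in the EP1 or EP5 entry, in the minusA83 entry, in the clone and in the p number, and these cannot be told apart. Each line is 1 clone, so a difference between them is a difference between these cell lines. Clone 3, labelled PiPS-EP5 minusPD minusA83 c18 p15 (4 libraries), and fibroblasts (4 libraries) shared the fit, and clone 3 levels are given beside some results without a comparison.

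Pluripotent stem cells hold their state through a small network of transcription factors with POU5F1, SOX2 and NANOG at its centre. In primed cells of pig, human and the mouse epiblast that network leans on nodal or activin signals and on FGF acting through ERK, while Wnt, BMP and hedgehog signals push cells towards germ layers. Such cells grow as an epithelium with E-cadherin junctions and a contractile actin belt, divide fast and make many ribosomes.

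Total estimated counts were 24314241 to 28630895 in clone 1 and 28432053 to 69879325 in clone 2, and 13235 to 13756 against 14789 to 15616 genes had a count. The difference in detected genes lay at low levels. Among 1546 genes at 1 to 3 CPM (counts scaled to a common library total) in clone 3, 17.7%, 14% and 8.09% had no count in clone 1 replicates 2, 3 and 4, against 0.194% to 1.16% in the 4 clone 2 libraries. The shallowest clone 2 library and the clone 1 libraries had like totals. At 10 to 30 CPM the shares were at most 0.099% in every library, and the median coefficient of variation was 23.7% in clone 1 and 13.2% in clone 2. Spearman correlations across genes were 0.9582 to 0.9641 between clone 1 libraries and 0.9860 to 0.9911 between clone 2 libraries. From clone 1 to clone 2 libraries they were 0.9502 to 0.9721. Clone 1 replicate 4 correlated at 0.9669 to 0.9721 with the clone 2 libraries, above its 0.9595 and 0.9641 with clone 1 replicates 2 and 3. The 6 pluripotency markers summed to 4181 to 4849 TPM (transcript levels scaled to gene length and library total) in clone 1, 4225 to 4684 in clone 2 and 0.73 to 5.38 in fibroblasts. The 6 fibroblast markers summed to 227.5 to 237.7 TPM in clone 1 and 161.9 to 274.7 in clone 2, against 15950.0 to 27350.0 in fibroblasts. No label ties the libraries of a clone to separate cultures, and the p-values rest on variation among libraries that may be technical.

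**Figure D1:**
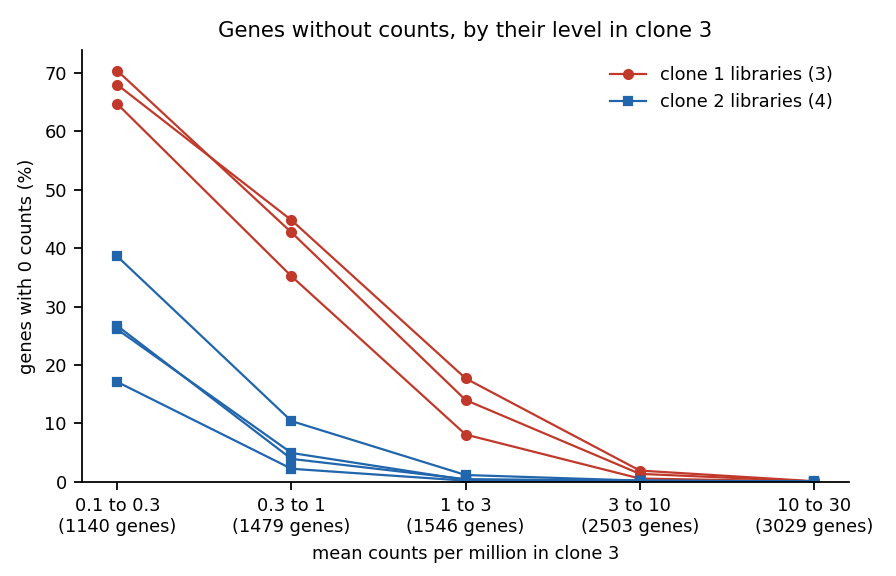
Share of genes with 0 counts (vertical axis, %) by their mean level in clone 3 (horizontal axis, CPM, with the number of genes), 1 line per library. The 3 clone 1 lines lie above the 4 clone 2 lines below 10 CPM, and all 7 meet near 0 at 10 to 30.

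Differences below are log2 values, clone 1 minus clone 2, ± SE, and levels are TPM per library. A gene was called at an adjusted p under 0.05. Of 14660 genes tested 1365 were called (9.31%), 655 higher in clone 1 (4.47%) and 710 lower (4.84%), and the median over all genes was -0.04. At least 2-fold differences were called for 754 genes (5.14%), 237 higher (1.62%) and 517 lower (3.53%). The direction went with the level of expression. Below a mean of 1 TPM 40 genes were higher and 268 lower in clone 1, at 1 to 10 TPM 135 and 222, at 10 to 100 TPM 315 and 188, and at 100 TPM or more 165 and 32. Among genes called lower 299 had 0 counts in at least 1 clone 1 library and 192 in all 3, while 30 genes called higher had 0 counts in a clone 2 library. Genes below 1 TPM moved with the undetected share above, and its part in their calls was not tested. Among the 7098 genes with a mean of at least 10 TPM, 700 were called (9.86%), 480 higher (6.76%) and 220 lower (3.1%), with a median of 0.05. The libraries of the clones did not overlap in 4129 of all genes (28.2%) and in 2316 of the genes at 10 TPM or more (32.6%).

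The split of calls differed between 2 analyses in which the scale, the scaling between libraries and the test (edgeR or limma) changed together. The main test applied TMM scaling factors, 1.024 to 1.042 in clone 1 and 1.135 to 1.193 in clone 2, and the test on TPM applied none. The separate part of each was not tested. On log2(TPM + 1), tested with limma, the median of all genes was -0.16 and 1792 genes were called, of which 386 (21.5%) were higher in clone 1, and at 10 TPM or more 227 of 783 were higher. Counts of called members are therefore given on both scales for most lists, those higher in clone 1 first. Without clone 2 replicate 3 the number of calls was 643, and without clone 1 replicate 4 it was 1757.

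**Figure D2:**
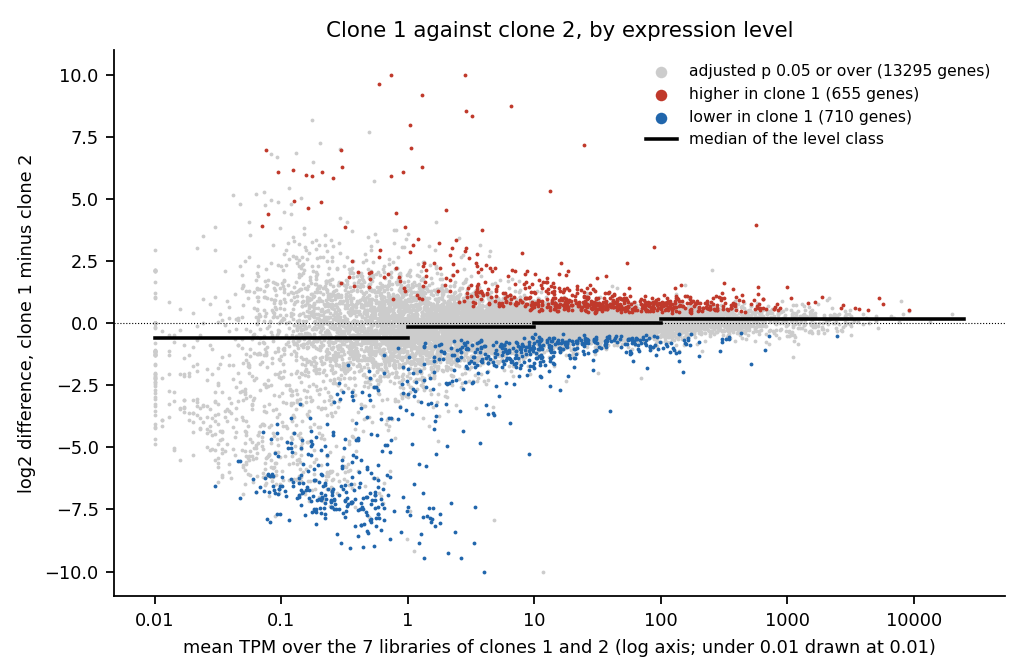
Log2 difference (vertical axis, clone 1 minus clone 2) against mean TPM over the 7 libraries (horizontal log axis), 1 point per gene tested, with the median of 4 level classes as lines. Calls below 1 TPM are mostly lower in clone 1 and those at 100 TPM or more mostly higher, and the size of a difference for a gene at 0 in every library of a clone depends on the fit's prior count.

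In a list of 37 genes of the actin cytoskeleton and contractile apparatus, every call was higher in clone 1. Many of these 37 genes are targets of serum response factor (SRF). In the list 18 were higher and 0 lower (48.6% called, against 9.31% over all genes), with a median of 0.61 against -0.04. This list and its members were chosen after values had been seen. On the TPM scale 10 were higher and 0 lower. The list does not cover all serum-induced or contractile genes. Of the immediate early genes, EGR1 (-3.55), EGR2 (-1.96), FOS and FOSB were lower and KLF6 and SRF higher. Of the cardiac and muscle genes, the myosin light chain gene MYL7 (-3.68) and DES (-1.93) were lower and CNN1 and TNNI3 higher. TAGLN, the actin-binding protein transgelin (chromosome 9, 44561756 to 44567385), stood at 796, 859 and 829 TPM in clone 1 and 411, 395, 430.3 and 429 TPM in clone 2. Every clone 1 library was above every clone 2 library (1.16 ± 0.19, adjusted p = 0.00207). CNN1, the gene of calponin, stood at 22.2, 26.6 and 30.4 TPM in clone 1 and 8.14, 5.05, 9.16 and 8.05 TPM in clone 2, also without overlap (1.96 ± 0.31, adjusted p = 0.00134). LMOD1, a leiomodin that nucleates actin filaments, stood at 17.2, 10.2 and 8.83 TPM in clone 1 and 4.79, 2.16, 2.78 and 3.11 TPM in clone 2, with clone 1 replicate 2 the highest and clone 2 replicate 1 the highest of its group (2.08 ± 0.29, adjusted p = 0.000372). Among abundant genes, MYH9, the heavy chain of non-muscle myosin IIA, stood at 632, 644 and 552 TPM in clone 1 and 381, 199, 346 and 332 TPM in clone 2 (1.13 ± 0.20, adjusted p = 0.00265). The tropomyosin gene TPM4, whose symbol happens to resemble the unit, stood at 7791, 7131 and 6769.8 TPM in clone 1 and 4402, 2837, 3673 and 4400.4 TPM in clone 2 (1.00 ± 0.18, adjusted p = 0.00298). In both genes clone 2 replicate 2 was the lowest library and the clones did not overlap. The tropomyosin gene TPM3 (0.61 ± 0.15), the ezrin gene EZR (0.83 ± 0.20), the vinculin gene VCL (0.62 ± 0.12), the talin gene TLN1 (0.58 ± 0.15), the actin gene ACTG1 (0.74 ± 0.22) and the profilin gene PFN1 (0.59 ± 0.18) were higher as well. SRF itself, a transcription factor, stood at 68.95, 63.1 and 58.6 TPM in clone 1 and 42.9, 44.8, 45.4 and 32.2 TPM in clone 2 (0.80 ± 0.20, adjusted p = 0.022). ACTB (0.29 ± 0.15), CFL1 (0.23 ± 0.20), CNN2 (0.01 ± 0.25) and MYL9 (-0.34 ± 0.47) did not pass. Leaving out 1 library left 9 to 18 members higher. With 1 library left out, calls were lost for SRF (4, 0.0755, clone 1 replicate 2), TPM3 (1, 0.0522, clone 2 replicate 3), EZR (1, 0.0502, clone 1 replicate 2), TLN1 (4, 0.0724, clone 1 replicate 2), ACTG1 (6, 0.17, clone 1 replicate 2) and PFN1 (7, 0.129, clone 2 replicate 4), with the number of the 7 such fits that lost the call, the highest adjusted p and the library then absent in brackets. TPM3 (adjusted p = 0.0557), TLN1 (0.053), ACTG1 (0.0982) and PFN1 (0.2) did not pass on log2(TPM + 1). In clone 3, TAGLN was at 474 ± 25.9 TPM, CNN1 was at 22.1 ± 1.97 and SRF was at 62.98 ± 7.83.

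Of 23 genes of the YAP and TEAD system, which links cell shape to transcription, 6 were higher and 0 lower (median 0.16), and 4 and 0 on the TPM scale (median -0.02). This list too was chosen after values had been seen, and 26.1% of it was called, against 9.31% over all genes. ANKRD1, a widely used reporter of YAP activity, stood at 30.7, 36 and 29.8 TPM in clone 1 and 6.92, 9.39, 8.27 and 9.38 TPM in clone 2. The lowest clone 1 value was above the highest clone 2 value (2.11 ± 0.22, adjusted p = 3.06e-05). F3, which encodes tissue factor, stood at 19.97, 17.4 and 24.4 TPM in clone 1 and 6.29, 6.67, 6.35 and 7.31 TPM in clone 2, again apart (1.81 ± 0.21, adjusted p = 0.0001). The urokinase gene PLAU (1.58 ± 0.26), the angiomotin-like gene AMOTL2 (0.64 ± 0.17) and the ligand gene TGFB2 (0.78 ± 0.18) passed. CCN2, another common reporter, stood at 15.99, 15.9 and 14.9 TPM in clone 1 and 17.8, 20.7, 21.1 and 18.4 TPM in clone 2 and did not pass (-0.14 ± 0.16, adjusted p = 0.622). YAP1 (0.16 ± 0.25), WWTR1 (0.34 ± 0.15) and TEAD1 to TEAD4 did not pass either. Among the 7 fits that left out 1 library, 1 or more ended the call of AMOTL2 (4, 0.0645, clone 1 replicate 3) and TGFB2 (1, 0.0563, clone 1 replicate 4) (fits losing it, highest adjusted p, library absent). AMOTL2 (adjusted p = 0.121) and TGFB2 (0.154) did not pass on log2(TPM + 1). TGFB2 (adjusted p = 0.0551) did not pass in a fit of the 7 libraries alone.

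A share of the genes that build ribosomes was higher in clone 1, while the listed ribosomal protein genes were not called. Of 94 nucleolar and ribosome assembly genes, a list chosen after values had been seen, 31 were higher and 0 lower (33%), with a median of 0.37. On the TPM scale 14 were higher and 0 lower, with a median of 0.18 against -0.16 over all genes. Of 46 genes of cytosolic ribosomal proteins 0 were called by edgeR (median -0.01) and 6 had an unadjusted p under 0.05, while DESeq2 called 1 higher and 2 lower and limma on the TPM scale 2 lower. RRS1, an assembly factor of the large subunit (chromosome 4, 68285803 to 68288213), stood at 164, 182 and 196 TPM in clone 1 and 107, 98.9, 88.7 and 83.3 TPM in clone 2. The clones did not overlap (1.11 ± 0.19, adjusted p = 0.00214). TMA16, which binds pre-ribosomes of the large subunit, stood at 65.8, 85.6 and 85.2 TPM in clone 1 and 40.9, 37.2, 38.5 and 48.6 TPM in clone 2, also apart (1.10 ± 0.16, adjusted p = 0.000705). The nucleolar GTPase gene GTPBP4 stood at 384, 397 and 346 TPM in clone 1 and 221, 123, 208 and 247 TPM in clone 2, with clone 2 replicate 2 the lowest (1.08 ± 0.23, adjusted p = 0.00998). RRP12 (1.09 ± 0.19), RRP9 (1.04 ± 0.21), RRP1B (1.03 ± 0.16), EBNA1BP2 (1.05 ± 0.19) and the helicase gene DDX27 (0.81 ± 0.16) were higher. So were UBTF, an RNA polymerase I transcription factor (0.64 ± 0.15), NOLC1, a nucleolar chaperone (0.54 ± 0.12), and PES1 (0.91 ± 0.24), which works in large-subunit assembly. NCL, which encodes nucleolin, was among the most abundant genes called, at 7299, 6823 and 7360.2 TPM in clone 1 and 5326, 3558, 4325 and 5460.1 TPM in clone 2 (0.79 ± 0.20, adjusted p = 0.0218). NPM1 (0.21 ± 0.24), FBL (0.47 ± 0.31), NOP56 (0.25 ± 0.19) and NOP58 (0.16 ± 0.20), core nucleolar proteins, did not pass. With 1 library left out 12 to 25 members were higher. RPS3A, a ribosomal protein gene outside the list of 46, was lower (-0.52 ± 0.15), as was RACK1, a protein of the small subunit, at 318, 387 and 409 TPM in clone 1 and 749.7, 845, 1099.6 and 856 TPM in clone 2 (-1.08 ± 0.20, adjusted p = 0.00465). Calls lost when 1 library was left out were those of UBTF (1, 0.0604, clone 1 replicate 2), PES1 (5, 0.0945, clone 1 replicate 2), NCL (3, 0.0667, clone 2 replicate 3) and RPS3A (6, 0.104, clone 2 replicate 4) (fits losing it, highest adjusted p, library absent). NOLC1 (adjusted p = 0.105) and NCL (0.101) did not pass on log2(TPM + 1).

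**Figure D3:**
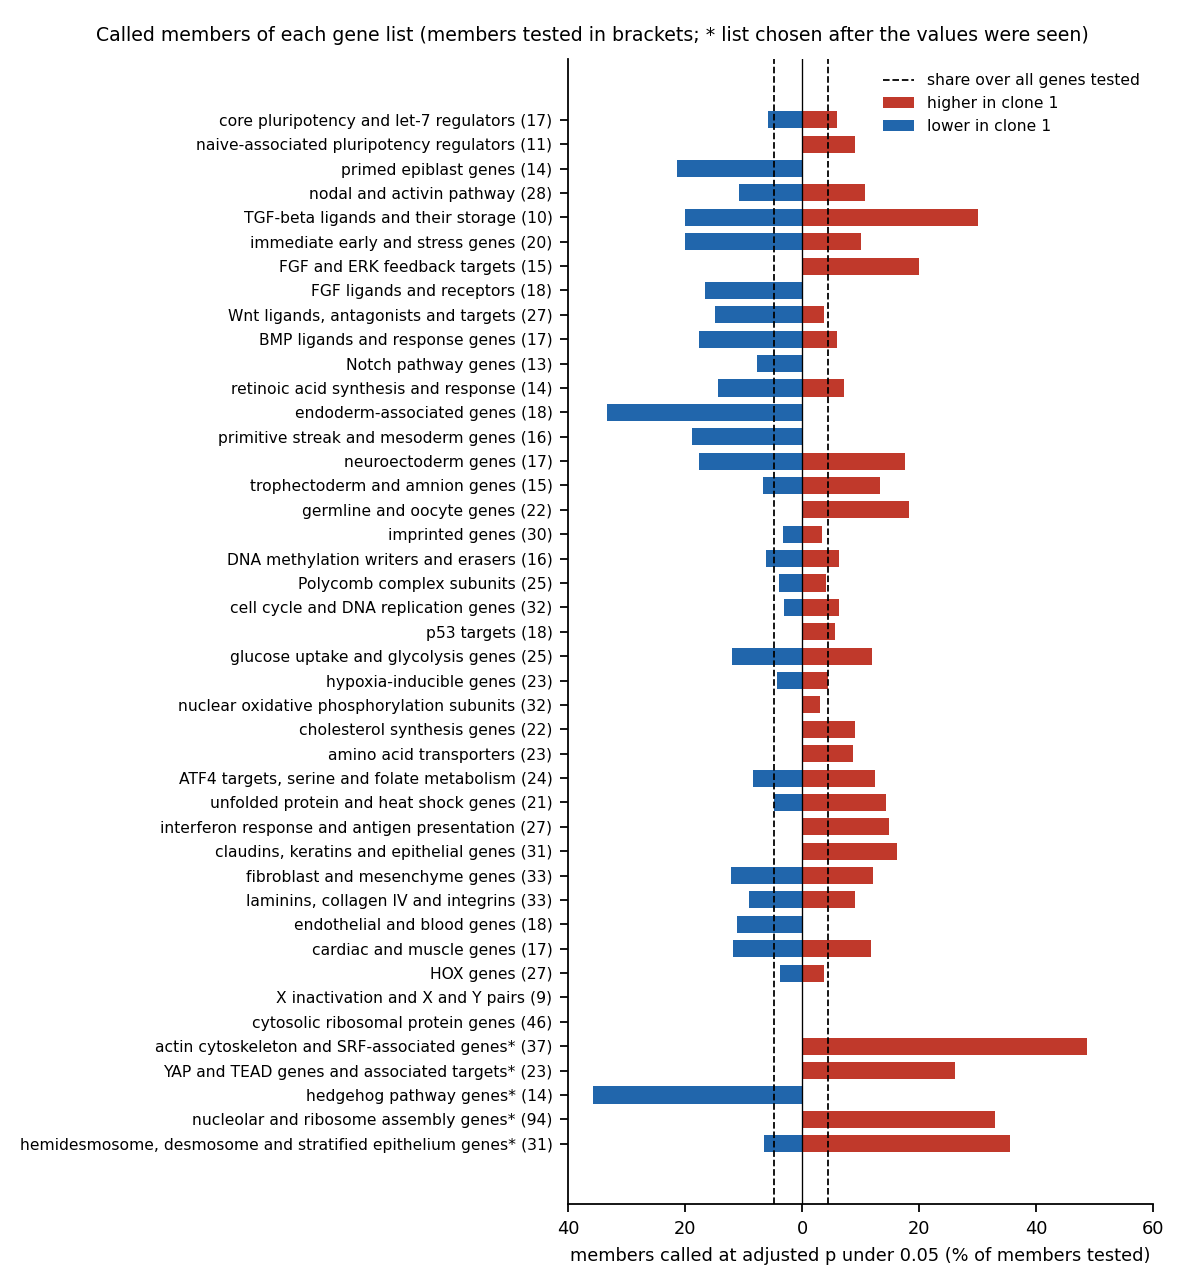
Members called as a share of members tested (horizontal axis, %) for 43 gene lists, higher in clone 1 to the right and lower to the left, with the shares over all genes (4.47% and 4.84%) as dashed lines. The actin list (18 of 37 higher), the hemidesmosome, desmosome and stratified epithelium list (11 of 31) and the nucleolar list (31 of 94) stand farthest right. The hedgehog list (5 of 14 lower) and the endoderm list (6 of 18) stand farthest left. Of these, all but the endoderm list were chosen after values had been seen, and the endoderm list was chosen with earlier results of these data known.

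Genes known from stratified epithelia were mostly higher where they were called. Of 31 genes of hemidesmosomes, desmosomes and stratified epithelium, a list chosen after values had been seen, 11 were higher and 2 lower (median 0.43; 9 and 3 on the TPM scale). COL17A1, the transmembrane collagen of hemidesmosomes (chromosome 14, 114959404 to 115007734), stood at 50.04, 52.5 and 50.2 TPM in clone 1 and 16.4, 16, 18.8 and 14.8 TPM in clone 2. Its groups were tight and apart (1.80 ± 0.20, adjusted p = 6.69e-05). SFN, which encodes 14-3-3 sigma, stood at 673, 473 and 352 TPM in clone 1 and 205, 159, 164 and 198 TPM in clone 2, with clone 1 replicate 2 the highest and no overlap (1.64 ± 0.25, adjusted p = 0.000972). LAMA3, the alpha chain of the laminin that anchors hemidesmosomes, stood at 3.42, 4.31 and 2.88 TPM in clone 1 and 1.09, 1.12, 1.37 and 1.03 TPM in clone 2 (1.76 ± 0.36, adjusted p = 0.00745). The serine protease gene TMPRSS2 stood at 436, 386 and 358 TPM in clone 1 and 233, 193, 255 and 175 TPM in clone 2, also apart (1.06 ± 0.25, adjusted p = 0.0162). The protease inhibitor gene SPINT2 stood at 425, 459 and 409 TPM in clone 1 and 221, 176, 224 and 222 TPM in clone 2 (1.21 ± 0.14, adjusted p = 0.000111). LAD1 (1.65 ± 0.37), VGLL1 (1.44 ± 0.21), the periplakin gene PPL (0.77 ± 0.22) and the dystonin gene DST (0.55 ± 0.13) were higher too. The integrin gene ITGA6 (-0.75 ± 0.17), whose protein also sits in hemidesmosomes, and the plakophilin gene PKP2 (-0.59 ± 0.17) were lower. TP63, the master regulator of stratified epithelium, was at 0.137 ± 0.0379 against 0.625 ± 0.103 TPM and did not pass, and KRT5 stood at 6.5 ± 0.996 against 3.08 ± 0.381 TPM (1.26 ± 0.37, adjusted p = 0.051). Among 31 claudin, keratin and simple epithelial genes 5 were higher and 0 lower (median 0.17; 6 and 1 on the TPM scale). That is 16.1% called, beside 41.9% of the stratified epithelium list and 9.31% over all genes. The tight junction gene CLDN4 (0.70 ± 0.20), the keratin gene KRT80 (1.43 ± 0.29) and the small GTPase gene RAB25 (0.96 ± 0.28) were among the higher ones, and KRT8 (-0.12 ± 0.25), KRT18 (-0.01 ± 0.28) and KRT19 (0.19 ± 0.22), the keratins of simple epithelium, did not pass. One-library-out fits ended the calls of TMPRSS2 (1, 0.0558, clone 1 replicate 2), PPL (3, 0.094, clone 1 replicate 3), DST (1, 0.0594, clone 1 replicate 2), ITGA6 (1, 0.0641, clone 1 replicate 2), PKP2 (6, 0.17, clone 1 replicate 2), CLDN4 (6, 0.108, clone 1 replicate 2) and RAB25 (5, 0.137, clone 1 replicate 3) (fits losing it, highest adjusted p, library absent). PPL (adjusted p = 0.0679) and DST (0.0995) did not pass on log2(TPM + 1). Means in clone 3 were 15.7 ± 1.29 TPM for COL17A1, 219 ± 35.4 for SFN and 416 ± 32.9 for SPINT2.

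Among pluripotency genes, the calls in the primed epiblast list were lower in clone 1. Of 17 core genes 1 was higher and 1 lower (11.8%, against 9.31% over all genes), and of 11 naive-associated genes 1 was higher (9.09%; 1 and 2 on the TPM scale). Of 14 primed epiblast genes 0 were higher and 3 lower (21.4%), on the TPM scale as well. MYCN, a growth-promoting transcription factor, stood at 13.03, 12.8 and 9.13 TPM in clone 1 and 6.15, 5, 8.49 and 6.66 TPM in clone 2 (1.01 ± 0.27, adjusted p = 0.0271). OTX2, a regulator of the primed epiblast, stood at 27.4, 31.7 and 21.6 TPM in clone 1 and 82.7, 88.4, 92.9 and 77.8 TPM in clone 2, without overlap (-1.54 ± 0.27, adjusted p = 0.00257). CDH2, the gene of N-cadherin (chromosome 6, 112396713 to 112629073), stood at 37, 41.9 and 59.01 TPM in clone 1 and 126, 125, 132 and 122 TPM in clone 2. The clones did not overlap (-1.29 ± 0.15, adjusted p = 9.78e-05). The transcription factor genes ZIC2 (-0.43 ± 0.25) and SALL2 (-0.12 ± 0.16) and the de novo methyltransferase gene DNMT3B (-0.03 ± 0.15) did not pass. PRDM14 (-0.22 ± 0.15), DPPA3 (-0.74 ± 0.47) and KLF5 (-0.87 ± 0.44), linked to the naive state, did not pass. With 1 library left out, calls were lost for MYCN (5, 0.0792, clone 1 replicate 2) (fits losing it, highest adjusted p, library absent). Clone 3 stood at 35.2 ± 4.75 TPM for CDH2 and 48.9 ± 7.48 for OTX2.

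In nodal and TGF-beta signalling, 3 feedback inhibitors were higher in clone 1 and the ligand antagonist gene CER1 was lower. Of 28 nodal and activin pathway genes 3 were higher and 3 lower (median -0.02, or 0.01 with genes at 0 in every library of a clone set to the bound that 3 counts over the group give). LEFTY2, a secreted nodal inhibitor induced by nodal (chromosome 10, 13849052 to 13853438), stood at 222, 181 and 124 TPM in clone 1 and 28.8, 15.4, 26.6 and 22.7 TPM in clone 2, the lowest clone 1 library above the highest of clone 2 (3.09 ± 0.46, adjusted p = 0.000791). SMAD7, an intracellular inhibitor that TGF-beta and BMP signals induce, stood at 9.8, 7.8 and 5.08 TPM in clone 1 and 2.54, 2.44, 3.52 and 4.26 TPM in clone 2, without overlap (1.48 ± 0.25, adjusted p = 0.00208). PMEPA1, a further feedback inhibitor, stood at 5.95, 9.51 and 3.31 TPM in clone 1 and 2.64, 3.55, 3.15 and 1.9 TPM in clone 2, and clone 1 replicate 4 lay within the range of clone 2 (1.37 ± 0.28, adjusted p = 0.00814). CER1 stood at 57.1, 58.5 and 73.9 TPM in clone 1 and 144, 147, 167 and 175 TPM in clone 2 (-1.16 ± 0.19, adjusted p = 0.0017). GDF1, a partner ligand of nodal, was at 0 in all 3 clone 1 libraries and at 0.45, 0.4, 0.77 and 0.1 TPM in clone 2 (adjusted p = 0.0287), and the co-receptor gene TDGF1 was lower (-1.02 ± 0.27). FST, which traps activin (-0.24 ± 0.14), the receptor gene TGFBR1 (-0.09 ± 0.25) and the protease gene FURIN (0.10 ± 0.17) did not pass. Of 10 genes of TGF-beta ligands and their storage 3 were higher and 2 lower (2 and 2 on the TPM scale). That is 50% called, beside 21.4% of the nodal and activin genes and 9.31% over all genes. The latent-complex gene LTBP3 (1.92 ± 0.27) and the ligand gene TGFB2 (0.78 ± 0.18) were higher, and LTBP1 (-0.60 ± 0.14) and TGFBI (-1.25 ± 0.30) lower. Among the 7 fits that left out 1 library, 1 or more ended the call of GDF1 (2, 0.0719, clone 1 replicate 3), TDGF1 (6, 0.0867, clone 1 replicate 3), TGFB2 (1, 0.0563, clone 1 replicate 4), LTBP1 (1, 0.0505, clone 1 replicate 2) and TGFBI (3, 0.0749, clone 1 replicate 2) (fits losing it, highest adjusted p, library absent). TGFB2 (adjusted p = 0.154) did not pass on log2(TPM + 1). TGFB2 (adjusted p = 0.0551) did not pass in a fit of the 7 libraries alone. In clone 3, LEFTY2 was at 27.6 ± 15.2 TPM, SMAD7 was at 2.87 ± 0.599 and CER1 was at 164 ± 27.7.

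Serum- and growth factor-induced genes went in both directions. Of 20 immediate early and stress genes 2 were higher and 4 lower (30% called). Calls made up 20% of the ERK feedback genes and 16.7% of the FGF genes below, against 9.31% over all genes. EGR1, a zinc finger factor that ERK signals induce within minutes (chromosome 2, 140440829 to 140445302), stood at 6.81, 3.65 and 4.29 TPM in clone 1 and 59.6, 66.1, 74.7 and 60.6 TPM in clone 2 (-3.55 ± 0.28, adjusted p = 2.23e-06). Its relative EGR2 stood at 0.41, 0.81 and 0.27 TPM in clone 1 and 2.24, 1.35, 2.69 and 3.45 TPM in clone 2, also without overlap (-1.96 ± 0.42, adjusted p = 0.0107). KLF6, likewise an early zinc finger gene, was in the other direction at 26.3, 21.5 and 35.4 TPM in clone 1 and 15.5, 14.8, 14.1 and 12.5 TPM in clone 2 (1.13 ± 0.16, adjusted p = 0.000521). JUN (0.02 ± 0.36), JUND (-0.16 ± 0.20) and GADD45A (0.09 ± 0.28) did not pass. The slower ERK feedback genes had 3 of 15 higher and 0 lower (median 0.20), and 1 and 0 on the TPM scale (median -0.05). CCND1, the gene of cyclin D1, stood at 161, 195 and 190.3 TPM in clone 1 and 105, 107, 103 and 86.7 TPM in clone 2 (1.03 ± 0.15, adjusted p = 0.000705), and the feedback genes SPRY4 (0.72 ± 0.17) and PHLDA1 (0.60 ± 0.15) were higher. DUSP6, the phosphatase that switches ERK off, did not pass and overlapped, at 127, 173 and 166 TPM in clone 1 and 233, 208, 254 and 157 TPM in clone 2 (-0.28 ± 0.24, adjusted p = 0.511). Among 18 FGF ligands and receptors 0 were higher and 3 lower, all of them receptors (0 and 5 on the TPM scale, and 1 or 2 lower with 1 library left out). FGFR2 stood at 30.1, 30.1 and 26.6 TPM in clone 1 and 58.7, 49.4, 54.2 and 48.2 TPM in clone 2 (-0.69 ± 0.15, adjusted p = 0.0103), and FGFR1 (-0.48 ± 0.15) and FGFR3 (-0.76 ± 0.23) were lower. FGF2, the ligand common in stem cell media, was at 37.4 ± 2.59 against 29.1 ± 5.099 TPM (0.54 ± 0.18, adjusted p = 0.0706). Calls lost when 1 library was left out were those of SPRY4 (3, 0.0841, clone 1 replicate 3), PHLDA1 (3, 0.0631, clone 1 replicate 3), FGFR1 (7, 0.139, clone 1 replicate 4) and FGFR3 (6, 0.126, clone 1 replicate 2) (fits losing it, highest adjusted p, library absent). SPRY4 (adjusted p = 0.0679) and PHLDA1 (0.186) did not pass on log2(TPM + 1). Means in clone 3 were 4.11 ± 0.867 TPM for EGR1 and 37.3 ± 5.44 for FGFR2.

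Several secreted antagonists of Wnt and BMP were lower in clone 1. Of 27 Wnt genes 1 was higher and 4 lower (median -0.50; 2 and 6 on the TPM scale), and of 17 BMP genes 1 and 3, or 1 and 6 on the TPM scale (median -0.40, or -0.38 with genes at 0 in a clone at that bound). SFRP1, which binds Wnt proteins, stood at 43.7, 56.5 and 65.2 TPM in clone 1 and 130.1, 124, 135 and 116 TPM in clone 2 (-1.02 ± 0.14, adjusted p = 0.0003). Its relative FRZB stood at 3.39, 8.35 and 4.1 TPM in clone 1 and 16.02, 19.1, 16.2 and 15.5 TPM in clone 2, with clone 1 replicate 3 the highest of its group and still below clone 2 (-1.50 ± 0.26, adjusted p = 0.0024). DKK1 was lower (-2.54 ± 0.69), while the related DKK3 was higher (0.96 ± 0.21). CDX1, a Wnt target, was at 0 in clone 1 and at 0.4, 0.25, 0.85 and 1.06 TPM in clone 2 (adjusted p = 0.0376). CHRD, the BMP antagonist chordin of the organizer, stood at 101, 108 and 86.8 TPM in clone 1 and 281, 248, 343 and 249 TPM in clone 2 (-1.33 ± 0.15, adjusted p = 8.4e-05). The antagonist gene GREM1 (-2.40 ± 0.61) and MSX1, a BMP target (0.03 ± 0.0265 against 0.877 ± 0.35 TPM), were lower. ID1 stood at 15.4, 23.9 and 20.7 TPM in clone 1 and 44.6, 40.3, 53.9 and 32.8 TPM in clone 2 (-0.92 ± 0.29, adjusted p = 0.0545), just outside the threshold, and ID3 (0.58 ± 0.35) and ID4 (0.50 ± 0.23) did not pass. CYP26A1, which degrades retinoic acid (chromosome 14, 104561394 to 104567099), had among the tightest groups, at 47.9, 49.4 and 47.8 TPM in clone 1 and 215, 214, 235 and 237 TPM in clone 2 (-1.97 ± 0.14, adjusted p = 3.24e-06). Of 14 retinoic acid genes 1 other was lower, the receptor gene RARB, at 0 in every clone 1 library and at 0.69, 0, 0.73 and 0.42 TPM in clone 2 (adjusted p = 0.0176), and DHRS3, which turns retinaldehyde back to retinol, was higher (0.74 ± 0.21). One-library-out fits ended the calls of DKK1 (5, 0.0794, clone 2 replicate 4), CDX1 (5, 0.0889, clone 1 replicate 3), GREM1 (4, 0.0841, clone 1 replicate 3) and DHRS3 (6, 0.116, clone 1 replicate 3) (fits losing it, highest adjusted p, library absent). RARB (adjusted p = 0.0701) and DHRS3 (0.0881) did not pass on log2(TPM + 1). GREM1 (adjusted p = 0.062), MSX1 (0.0589), RARB (0.0865) and DHRS3 (0.0534) did not pass in a fit of the 7 libraries alone. Clone 3 stood at 71.6 ± 1.87 TPM for CHRD, 59.8 ± 2.35 for CYP26A1 and 98.2 ± 8.15 for SFRP1.

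Of 14 hedgehog pathway genes 5 were lower in clone 1 and 0 higher (median -0.64), on the TPM scale as well, and with 1 library left out 3 or 4 were lower. The list was chosen after values had been seen, and 35.7% of it was called, against 9.31% over all genes. SHH, the ligand, stood at 6.71, 4.99 and 4.22 TPM in clone 1 and 17.3, 12.2, 14.3 and 18.9 TPM in clone 2 (-1.39 ± 0.41, adjusted p = 0.0468). PTCH1, its receptor and a target of the pathway (chromosome 10, 26627165 to 26703225), stood at 3.65, 2.36 and 4.11 TPM in clone 1 and 18.2, 16.1, 20.2 and 14.2 TPM in clone 2 (-2.15 ± 0.25, adjusted p = 0.000101). HHIP, a decoy receptor that is also a target, stood at 7, 7.95 and 5.86 TPM in clone 1 and 17.5, 19.8, 23.3 and 17.6 TPM in clone 2 (-1.33 ± 0.29, adjusted p = 0.0108). None of the 3 genes overlapped between clones. GLI1, the target transcription factor, was at 1.55 ± 0.793 against 4.64 ± 0.805 TPM (-1.35 ± 0.41, adjusted p = 0.0474). GPC3, a glypican that binds hedgehog proteins, was at 0.88 ± 0.366 against 5.11 ± 0.712 TPM (-2.35 ± 0.38, adjusted p = 0.00175). SMO (-0.27 ± 0.19), GLI2 (-0.62 ± 0.40), GLI3 (-0.10 ± 0.48) and SUFU (-0.62 ± 0.28), which carry the signal, did not pass. With 1 library left out, calls were lost for SHH (7, 0.129, clone 2 replicate 4) and GLI1 (6, 0.131, clone 1 replicate 3) (fits losing it, highest adjusted p, library absent). In clone 3, PTCH1 was at 5.54 ± 0.956 TPM and SHH was at 5.74 ± 1.699.

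Endoderm-associated genes were the most one-sided of the 38 lists chosen with earlier results of these data known. Of 18 genes 6 were lower and 0 higher (median -1.25), and 11 were lower on the TPM scale. FOXA2, a pioneer factor of endoderm, node and floor plate, stood at 6.62, 12.1 and 10.9 TPM in clone 1 and 28.3, 28.6, 27.9 and 31.2 TPM in clone 2 (-1.38 ± 0.41, adjusted p = 0.0456). FOXA1 stood at 0.81, 0.69 and 0.53 TPM in clone 1 and 3.4, 3.36, 4.66 and 3.41 TPM in clone 2 (-2.27 ± 0.42, adjusted p = 0.00403). HHEX stood at 13.6, 2.55 and 0.36 TPM in clone 1 and 19.2, 17.9, 18.4 and 28.7 TPM in clone 2, spread within clone 1 from near 0 to close to clone 2, and did not pass (-1.74 ± 0.67, adjusted p = 0.113). CXCR4, a surface marker of definitive endoderm, was at 9.603 ± 6.27 against 27.8 ± 4.22 TPM and did not pass (-1.34 ± 0.57, adjusted p = 0.148). APOE, an apolipoprotein gene of the list, did not pass (-0.34 ± 0.20). The 5 endoderm markers summed to 49.38 to 63.01 TPM in clone 1 and 100.9 to 131.4 in clone 2, and the sums did not overlap. In bulk RNA, fewer cells of a type and less RNA per cell cannot be told apart. Of 16 primitive streak and mesoderm genes 3 were lower and 0 higher (median -0.84), with 4 lower on the TPM scale and 1 to 5 with 1 library left out. That is 18.8% called, beside 33.3% of the endoderm genes and 9.31% over all genes. Of these 16 genes 8 had a clone 1 library at 0, and the median of all genes below 1 TPM was -0.58. The 4 streak and mesoderm genes at 10 TPM or more had 1 lower and a median of -0.56. EOMES (-0.25 ± 0.25) and GSC (0.16 ± 0.42), genes of the streak and organizer, did not pass. FOXC2, a mesoderm factor, was at 0 in every clone 1 library and at 0.24, 0.13, 0.75 and 0.47 TPM in clone 2 (adjusted p = 0.00945). Among the 7 fits that left out 1 library, 1 or more ended the call of FOXA2 (7, 0.134, clone 1 replicate 2) (fits losing it, highest adjusted p, library absent). FOXC2 (adjusted p = 0.309) did not pass on log2(TPM + 1). Means in clone 3 were 19 ± 4.93 TPM for FOXA2 and 0.557 ± 0.107 for FOXA1.

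**Figure D4:**
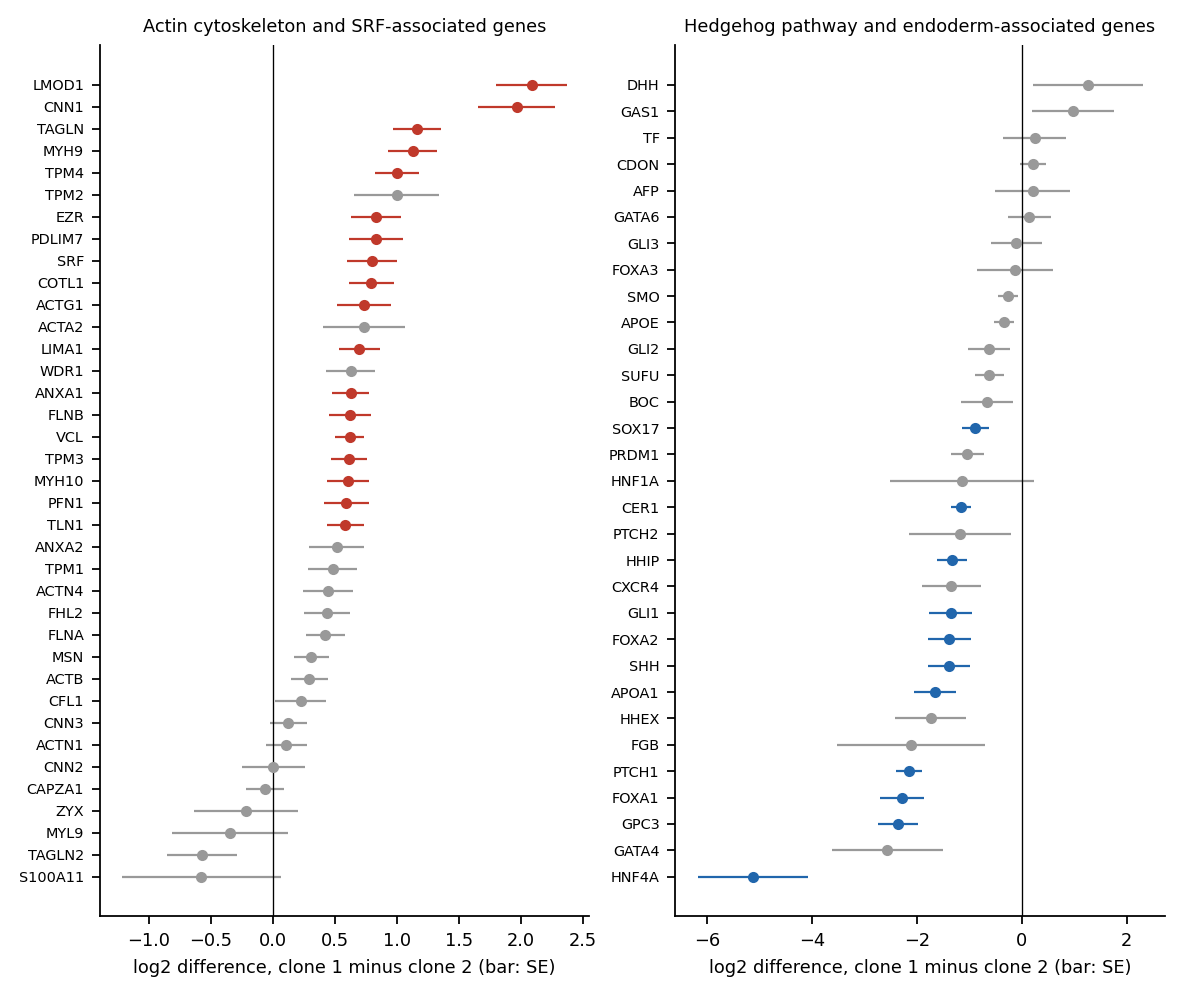
Log2 difference (horizontal axis, clone 1 minus clone 2, bars SE) for the tested genes of the actin list and of the hedgehog and endoderm lists, sorted by size, red for genes called higher, blue for lower and grey for neither; genes at 0 in every library of a clone are not drawn. All 18 called genes of the actin list lie right of 0, up to LMOD1 (2.08), and all called hedgehog and endoderm genes left of it.

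Germline genes had 4 of 22 higher and 0 lower (18.2% called, against 9.31% over all genes, median 0.37). They had 3 and 2 on the TPM scale (median 0.09), and 2 to 5 higher and 0 to 2 lower with 1 library left out. RBM46, an RNA-binding protein of meiotic germ cells, stood at 6.01, 7.26 and 3.32 TPM in clone 1 and 1.21, 0.78, 0.47 and 0.89 TPM in clone 2 (2.89 ± 0.36, adjusted p = 0.000194). SOX15, a relative of SOX2, stood at 43.6, 23.6 and 25.7 TPM in clone 1 and 15.2, 17.8, 14.5 and 12.3 TPM in clone 2 (1.24 ± 0.29, adjusted p = 0.0165), and the synapsis gene SYCP2 was higher (1.41 ± 0.36) with overlapping libraries. NPM2, an oocyte chaperone, did not pass (0.66 ± 0.22). Clone 3 stood at 11.3 ± 1.31 TPM for RBM46 and at 25.4 ± 2.41 for the germ cell gene DND1, which was 30.02 ± 12.2 against 0.84 ± 0.213 TPM in clones 1 and 2. Lists of chromatin genes had 1 higher and 1 lower each among 30 imprinted (6.67% called), 16 DNA methylation (12.5%) and 25 Polycomb genes (8%), against 9.31% over all genes. The imprinted genes had 1 higher and 5 lower on the TPM scale and 3 and 2 with DESeq2, and the Polycomb genes 0 and 2 on the TPM scale and 1 and 4 with DESeq2. L3MBTL1 was the lower imprinted gene, at 0 in clone 1 and 0.31, 0.22, 0.83 and 0.57 TPM in clone 2 (adjusted p = 0.00674), and GNAS (-0.38 ± 0.16), SNRPN (-0.09 ± 0.27) and IGF2R (0.38 ± 0.14) did not pass. MBD3, a subunit of the NuRD complex, was higher (0.82 ± 0.21) and TET2, which oxidizes methylcytosine, lower (-1.64 ± 0.45), and JARID2 (0.51 ± 0.15) was higher and AEBP2 (-0.85 ± 0.22) lower among the Polycomb subunits. Calls lost when 1 library was left out were those of SOX15 (2, 0.0878, clone 1 replicate 2), SYCP2 (3, 0.232, clone 1 replicate 2), MBD3 (4, 0.0947, clone 1 replicate 2), TET2 (5, 0.106, clone 1 replicate 3), JARID2 (7, 0.115, clone 2 replicate 4) and AEBP2 (5, 0.0902, clone 1 replicate 3) (fits losing it, highest adjusted p, library absent). SYCP2 (adjusted p = 0.201), L3MBTL1 (0.0607), MBD3 (0.0546) and JARID2 (0.0839) did not pass on log2(TPM + 1). SYCP2 (adjusted p = 0.178), TET2 (0.0657) and AEBP2 (0.0539) did not pass in a fit of the 7 libraries alone.

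Metabolic lists had a few calls in each direction. The share called was 3.12% for oxidative phosphorylation, 8.7% for amino acid transporters and 9.09% for cholesterol genes, against 9.31% over all genes. It was 19% for unfolded protein and heat shock genes, 20.8% for ATF4, serine and folate genes and 24% for glycolysis genes. Of 25 glucose uptake and glycolysis genes 3 were higher and 3 lower (median -0.03; 2 and 5 on the TPM scale). PFKP, a phosphofructokinase, stood at 65.1, 62.5 and 39.6 TPM in clone 1 and 31.5, 20.7, 26.8 and 26.5 TPM in clone 2 (1.26 ± 0.22, adjusted p = 0.00262), and the hexokinase genes HK2 (1.13 ± 0.19) and HK1 (0.44 ± 0.13), which act at the first step, were higher. LDHA, the lactate dehydrogenase of the last step, was lower, at 476, 518 and 597 TPM in clone 1 and 872, 883, 832 and 882 TPM in clone 2, with no overlap (-0.53 ± 0.12, adjusted p = 0.0125), as were ALDOA (-0.62 ± 0.18) and ENO2 (-1.77 ± 0.37), and the transporter gene SLC2A3 (0.05 ± 0.27), LDHB (0.35 ± 0.16) and PKM (-0.11 ± 0.17) did not pass. Among 32 oxidative phosphorylation genes SDHA was the 1 call, higher (0.55 ± 0.13), and on the TPM scale 0 were higher and 3 lower. Of 22 cholesterol genes 2 were higher (1 on the TPM scale), among them the squalene epoxidase gene SQLE (0.62 ± 0.13). Of 24 ATF4, serine and folate genes 3 were higher and 2 lower (2 and 3 on the TPM scale), among them ASS1, the arginine-synthesis enzyme, at 63.5, 59.9 and 64.1 TPM in clone 1 and 37.8, 34.4, 31.5 and 34.6 TPM in clone 2 (1.00 ± 0.18, adjusted p = 0.00287), the secreted factor STC2 (3.03 ± 0.53) and the serine-pathway enzyme PSAT1 (0.67 ± 0.17), against ALDH1L2 (-0.71 ± 0.18) and VLDLR (-0.59 ± 0.16). The glutamate transporter gene SLC1A3 (0.75 ± 0.20) and the arginine transporter gene SLC7A1 (0.48 ± 0.14) were the 2 higher of 23 amino acid transporter genes, which had 1 higher and 3 lower on the TPM scale. The chaperone genes HSP90AB1, at 10620.0 ± 712 against 8220.0 ± 771 TPM (0.54 ± 0.15), and HSP90AA1 (0.54 ± 0.16) were higher, with 3 of 21 unfolded protein and heat shock genes higher and 1, PDIA4 (-0.38 ± 0.11), lower. That list had 0 higher and 2 lower on the TPM scale, and 0 higher in each of the 7 edgeR fits with 1 library left out. One-library-out fits ended the calls of HK1 (7, 0.131, clone 1 replicate 2), LDHA (1, 0.0504, clone 1 replicate 2), ALDOA (6, 0.145, clone 1 replicate 3), SDHA (2, 0.0749, clone 1 replicate 2), PSAT1 (4, 0.0812, clone 2 replicate 3), ALDH1L2 (5, 0.0828, clone 1 replicate 3), VLDLR (5, 0.125, clone 1 replicate 3), SLC1A3 (5, 0.127, clone 1 replicate 2), SLC7A1 (6, 0.103, clone 2 replicate 4), HSP90AB1 (6, 0.123, clone 1 replicate 2), HSP90AA1 (7, 0.138, clone 2 replicate 3) and PDIA4 (6, 0.162, clone 1 replicate 2) (fits losing it, highest adjusted p, library absent). HK1 (adjusted p = 0.2), SDHA (0.0882), SQLE (0.111), PSAT1 (0.171), SLC7A1 (0.229), HSP90AB1 (0.223) and HSP90AA1 (0.23) did not pass on log2(TPM + 1). STC2 (adjusted p = 0.124), VLDLR (0.109) and SLC7A1 (0.0646) did not pass in a fit of the 7 libraries alone.

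Interferon and antigen presentation genes had 4 of 27 higher and 0 lower (median 0.04), 2 and 1 on the TPM scale and 1 to 4 higher with 1 library left out. ISG15, a ubiquitin-like protein, stood at 33.8, 26.5 and 35.2 TPM in clone 1 and 10.4, 8.46, 15.1 and 21.7 TPM in clone 2 (1.36 ± 0.39, adjusted p = 0.0387), MX1 was higher by 0.57 ± 0.13, and DDX58, the RNA sensor RIG-I (0.57 ± 0.16), and the peptide transporter gene TAP2 (0.61 ± 0.15) followed, while B2M (-0.05 ± 0.24) did not pass. Among 18 p53 targets MDM2, the E3 ligase of p53, was the 1 call, at 186, 178 and 181 TPM in clone 1 and 95.7, 107, 91.7 and 91.1 TPM in clone 2, apart and tight in both clones (1.00 ± 0.13, adjusted p = 0.000294), and CCNG1 (-0.09 ± 0.14), PHLDA3 (0.36 ± 0.16) and PMAIP1 (-0.25 ± 0.34) did not pass. Of 32 cell cycle genes CCND1 and CDKN2B were higher and CCND3 was lower. The share called was 5.56% of p53 targets, 9.38% of cell cycle genes and 14.8% of interferon genes, against 9.31% over all genes. CDKN2B, an inhibitor of CDK4 that TGF-beta induces, was uneven in clone 1, at 8.1, 5.51 and 0.45 TPM in clone 1 and 0.33, 0.2, 0.24 and 0.17 TPM in clone 2 (2.76 ± 0.50, adjusted p = 0.00377). With 1 library left out, calls were lost for ISG15 (6, 0.104, clone 2 replicate 2), DDX58 (4, 0.115, clone 1 replicate 2), TAP2 (3, 0.0654, clone 2 replicate 4) and CCND3 (3, 0.0777, clone 1 replicate 3) (fits losing it, highest adjusted p, library absent). MX1 (adjusted p = 0.0636) and DDX58 (0.0582) did not pass on log2(TPM + 1). DDX58 (adjusted p = 0.0889) and CCND3 (0.0612) did not pass in a fit of the 7 libraries alone.

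Matrix genes were split as well. Of 33 fibroblast and mesenchyme genes 4 were higher and 4 lower (24.2% called, beside 18.2% of the laminin, collagen IV and integrin genes and 9.31% over all genes). The 4 higher were expressed above 10 TPM, namely COL5A2, a type V collagen chain, at 27.7, 31.2 and 24.3 TPM in clone 1 and 14.6, 9.21, 13.9 and 10.8 TPM in clone 2 (1.32 ± 0.21, adjusted p = 0.00118), COL6A2 (0.84 ± 0.19), VIM (0.83 ± 0.16) and TAGLN. The 4 lower lay at a few TPM or less, among them LOXL1, a collagen crosslinker, at 1.95, 1.37 and 2.11 TPM in clone 1 and 5.68, 3.97, 8.05 and 7.12 TPM in clone 2 (-1.60 ± 0.33, adjusted p = 0.00755). Of 33 laminin, collagen IV and integrin genes 3 were higher and 3 lower (2 and 5 on the TPM scale). ITGA3, the integrin chain that pairs with ITGB1 to bind laminins of the basement membrane, stood at 42.2, 32.5 and 40.2 TPM in clone 1 and 24.01, 23, 28.5 and 23.9 TPM in clone 2 (0.80 ± 0.17, adjusted p = 0.0104). ITGA6, another laminin-binding chain, stood at 53.7, 64.4 and 78.2 TPM in clone 1 and 127, 129, 145 and 95.1 TPM in clone 2 (-0.75 ± 0.17, adjusted p = 0.0146), the reverse of ITGA3 and again without overlap. The nidogen gene NID1 was lower (-0.58 ± 0.17), LAMA4 higher (0.58 ± 0.14), and ITGB1 (0.41 ± 0.18), COL4A1 (0.60 ± 0.27) and SPARC (0.17 ± 0.24) did not pass. Among the 7 fits that left out 1 library, 1 or more ended the call of ITGA6 (1, 0.0641, clone 1 replicate 2), NID1 (6, 0.16, clone 1 replicate 2) and LAMA4 (3, 0.0569, clone 1 replicate 3) (fits losing it, highest adjusted p, library absent). LAMA4 (adjusted p = 0.139) did not pass on log2(TPM + 1). LAMA4 (adjusted p = 0.0508) did not pass in a fit of the 7 libraries alone.

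Among named genes at 10 TPM or more in the higher clone, further wide differences lay outside these lists. The naming rule took the widest differences only from genes whose libraries did not overlap between clones. Higher in clone 1 were LIPG, the endothelial lipase, at 52.9, 66.5 and 68.7 TPM in clone 1 and 20.9, 17.99, 16.5 and 16.2 TPM in clone 2 (1.91 ± 0.15, adjusted p = 2.23e-06), and AMY2, an amylase, at 99.97, 100.5 and 96.1 TPM in clone 1 and 14.5, 31.6, 24.3 and 13.2 TPM in clone 2 (2.41 ± 0.41, adjusted p = 0.00215). VGF, a secreted neuropeptide precursor (1.98 ± 0.38), KCNF1, a potassium channel subunit (1.92 ± 0.38), PXDC1 (1.94 ± 0.32), TMEM265 (2.15 ± 0.55) and NDUFAF8, a complex I assembly factor (1.97 ± 0.46), followed. Lower in clone 1 was HTRA1, a secreted serine protease, at 12.7, 9.31 and 9.1 TPM in clone 1 and 41.9, 47.05, 44.5 and 38.97 TPM in clone 2. The HTRA1 difference was -1.88 ± 0.19 (adjusted p = 3.06e-05). PRTG, the protogenin of early embryos, stood at 2.33, 2.01 and 3.92 TPM in clone 1 and 13.1, 15.1, 13.7 and 10.9 TPM in clone 2 (-2.09 ± 0.24, adjusted p = 9.78e-05). LGR4, a receptor for R-spondins in Wnt signalling, stood at 5.56, 3.01 and 4.91 TPM in clone 1 and 19.5, 15.6, 25.03 and 17.5 TPM in clone 2 (-1.93 ± 0.26, adjusted p = 0.000286). The myelin gene PMP22 (-2.13 ± 0.26), KCTD12 (-2.11 ± 0.26), RAB27B, a GTPase of secretion (-2.12 ± 0.35), NUDT7, a peroxisomal hydrolase (-2.45 ± 0.47), and GRASP (-1.89 ± 0.35) were lower too. Among the most abundant calls, GPX4, the glutathione peroxidase of membrane lipids (-0.65 ± 0.16), and FABP7, a fatty acid-binding protein (-0.55 ± 0.16), were lower and the ADP/ATP carrier gene SLC25A6 higher (0.63 ± 0.17). Calls lost when 1 library was left out were those of TMEM265 (5, 0.0735, clone 2 replicate 3), NDUFAF8 (2, 0.0967, clone 1 replicate 2), GPX4 (3, 0.0657, clone 1 replicate 4), FABP7 (6, 0.123, clone 1 replicate 3) and SLC25A6 (6, 0.102, clone 1 replicate 2) (fits losing it, highest adjusted p, library absent). SLC25A6 (adjusted p = 0.148) did not pass on log2(TPM + 1). Clone 3 stood at 26.4 ± 2.203 TPM for LIPG, 4.42 ± 0.897 for AMY2, 11.4 ± 2.06 for HTRA1, 2.58 ± 0.6 for PRTG and 9.52 ± 3.19 for LGR4.

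**Figure D5:**
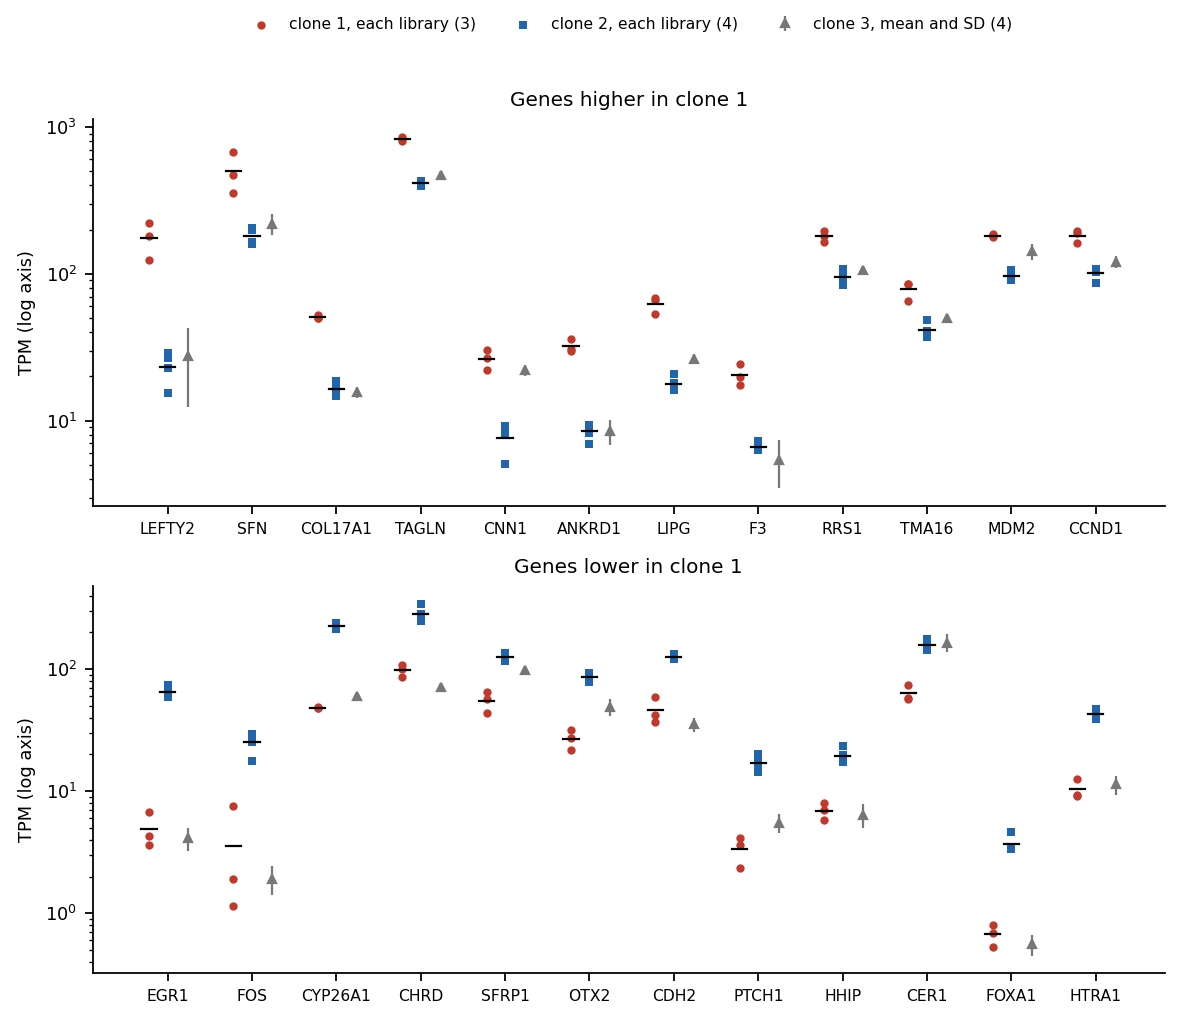
TPM (vertical log axis) in each clone 1 library (circles) and clone 2 library (squares), with the mean as a line and clone 3 as mean and SD (triangles), for 12 genes called higher and 12 called lower in clone 1. The genes were picked by hand from called genes, so that none of them overlaps between clones 1 and 2 is no separate result. The clone 3 triangles of CYP26A1, CHRD, HTRA1 and EGR1 lie far below clone 2, while those of COL17A1, ANKRD1 and F3 lie near it.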

How the data were processed

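Bulk RNA-seq of 3 libraries of clone 1 and 4 of clone 2 was compared, with RNA extracted by a QIAGEN RNeasy Plus Mini kit and libraries made by LM-seq, per the labels' protocols. Values deposited by the authors were expected counts, which RSEM estimates per gene and library, and TPM, which is scaled by gene length and library total. Per the submitters' processing notes, reads went through bcl2fastq, Bowtie 1.2.3 and RSEM 1.2.3 with Sscrofa11.1. How strand was handled is not given in the sources used here, and overlapping, antisense or near-identical genes may share reads. Groups came from the labels.

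Expected counts were rounded and tested in edgeR 4.0.16 (quasi-likelihood F test, R 4.3.3) with TMM scaling and filterByExpr (minimum count 10) over 15 libraries, clones 1 to 3 and fibroblasts, with p-values adjusted by Benjamini-Hochberg over 14660 genes. An SE is the log2 difference over the root of F. TPM entered no main test. No pair of libraries of a clone was identical. Total counts per library were at least 24314241. DESeq2 1.42.0 and limma 3.58.1 were among 18 alternatives. The tests were tried on simulated counts. Coordinates are RefSeq genes of Sscrofa11.1, and symbols matched for 14620 of the genes tested.

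The comparison, the members, 38 lists of genes and the naming rule were chosen with earlier results of these data known, and 5 further lists were chosen after values were seen. Named were, per list, up to 5 called members in each direction and up to 3 abundant members not called. The 15 widest differences each way at 10 TPM or more, the 8 most abundant calls each way and genes at 0 in 1 clone were named too. The widest differences were taken only from called genes whose libraries did not overlap between clones, so their lack of overlap was set in advance. Some genes that the rule gives were left out for length. Members of the 5 further lists, and LOC100513450, lie outside the rule. No sequences are shown, and planned descriptions of promoters were not made. Some members of the lists were not analysed or are not reported here.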

Additional observations from a re-analysis of the deposited data

Results flagged for a closer look

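In groups of 4 libraries, a value was noted when its gap to the nearest other exceeded Dixon's critical value for 4 values, as a share of the group's range. Of 226 sets of values checked, 13 had such a library, near the 1 in 20 that chance gives. The single cases below are therefore not set apart from chance. Clone 1, with 3 libraries, was not checked.

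Clone 2 replicate 2 stood apart, low, for the cytoskeletal linker gene EZR (660.0 TPM), the periplakin gene PPL (25.7 TPM), the protease inhibitor gene SPINT2 (176 TPM) and the channel gene KCNF1 (2.58 TPM), and high for the activin-binding gene FST (393.8 TPM). Clone 2 replicate 3 stood apart for ALDOA (504.2 TPM, high), FOXA1 (4.66 TPM, high) and PSAT1 (9.35 TPM, low). The share of counts held by its 50 most abundant genes was low as well (15.37%). Clone 2 replicate 4 stood apart for DKK1 (24.03 TPM, high), HHEX (28.68 TPM, high) and JARID2 (60.7 TPM, low). Clone 2 replicate 1 had NEUROG2 at 0.01 TPM, where the other 3 were at 0. Without clone 2 replicate 2 the number of genes called fell from 1365 to 798. It fell without each other clone 2 library too, to 852 (replicate 1), 643 (replicate 3) and 797 (replicate 4).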

How the results depend on the processing

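Of 18 alternatives 1, restriction to genes with a mean of at least 10 TPM, was chosen after the data had been seen. The 1365 calls became 1386 with RLE scaling, 1177 without a filter, 1676 in a fit of the 7 libraries alone, 1792 with limma on log2(TPM + 1), 1741 on log2(TPM + 0.1) and 1710 on log2(TPM + 1) without a filter. They became 2288 with the Wald test of DESeq2, 2462 in a fit of clones 1 to 3, 120 with a minimum fold change of 2 and 705 among genes at 10 TPM or more. Leaving out 1 library gave 643 to 1757 calls. The share called higher in clone 1 was 56.5% in the fit of the 7 libraries alone, 60% among genes at 10 TPM or more, 21.5% on log2(TPM + 1), 18.5% on log2(TPM + 0.1) and 22.2% on log2(TPM + 1) without a filter. With the replicate number as a block 694 genes were called, 61.2% of them higher. Same-numbered libraries had deviations that correlated at -0.0114, 0.0001 and 0.0014, and differently numbered ones at -0.02376 to 0.02675. Taken over all genes tested, such values cannot show whether same-numbered libraries shared a culture, day or batch, which the labels do not state. Of the 159 called genes named in the text 88 kept their call in all 7 fits with 1 library left out and 125 on log2(TPM + 1), and 1 gene lost its sign as well. In the fit of the 7 libraries alone 138 of 154 with a value kept it, with RLE scaling 156 and without a filter 145. The HOXC10 log2 difference was 0.00 to 6.79 with 1 library left out, the lowest without clone 1 replicate 3. Apart from that construction, the cause of lost calls was not tested. Genes called both in an alternative and in the main analysis kept their direction in all 18. Each alternative used the same libraries of clones 1 and 2, or all but 1 of them, so this is no separate support. The clone 1 libraries detect fewer low genes, which limits any statement below 10 TPM.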

Other observations

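Lists of later lineages held calls mostly at low levels. Of 17 neuroectoderm genes 3 were higher and 3 lower in clone 1 (1 and 2 on the TPM scale). NES, the gene of the filament protein nestin, was the abundant one, at 185, 179 and 181 TPM in clone 1 and 120.3, 69.8, 107 and 116 TPM in clone 2, with no overlap (0.99 ± 0.17, adjusted p = 0.00292). LHX5, a forebrain factor, was at 0 in all clone 1 libraries and at 1.69, 1.14, 0.76 and 0.72 TPM in clone 2 (adjusted p = 0.00757), and SIX3, another forebrain gene, stood at 0.94, 0 and 0 TPM in clone 1 and 4.4, 4.12, 4.22 and 4.31 TPM in clone 2. PAX6 and NEUROG2 were called higher from uneven values, with PAX6 at 0, 1.05 and 0.03 TPM in clone 1 and 0.01, 0.05, 0 and 0 TPM in clone 2. Of 17 cardiac and muscle genes 2 were higher, CNN1 and TNNI3, a cardiac troponin (0.88 ± 0.21), and 2 lower, the atrial myosin light chain gene MYL7, at 0.55 ± 0.211 against 8.06 ± 1.75 TPM, and DES (-1.93 ± 0.55). Of 27 HOX genes 1 was higher and 1 lower, and 26 had a clone 1 library at 0 and 23 a clone 2 library. HOXC10 rested on clone 1 replicate 3, at 0, 0.87 and 0 TPM in clone 1 and 0, 0, 0 and 0 TPM in clone 2. Of 18 endothelial and blood genes 0 were higher and 2 lower, both under 1 TPM, and of 15 trophectoderm and amnion genes 2 were higher and 1 lower, with IGFBP3 at 51.7, 77.4 and 73.2 TPM in clone 1 and 37.4, 40.8, 41.2 and 34.6 TPM in clone 2 (0.98 ± 0.20, adjusted p = 0.00872). One-library-out fits ended the calls of SIX3 (6, 0.0741, clone 2 replicate 3), PAX6 (4, 0.907, clone 1 replicate 3), NEUROG2 (6, 0.111, clone 2 replicate 3), TNNI3 (3, 0.0517, clone 1 replicate 2), MYL7 (7, 0.101, clone 1 replicate 2), DES (5, 0.0829, clone 2 replicate 1) and HOXC10 (4, 1, clone 1 replicate 3) (fits losing it, highest adjusted p, library absent). PAX6 (adjusted p = 0.409), NEUROG2 (0.117), TNNI3 (0.13) and HOXC10 (0.377) did not pass on log2(TPM + 1). SIX3 (adjusted p = 0.0644) and DES (0.276) did not pass in a fit of the 7 libraries alone.

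Among genes at 0 counts in every library of one clone and at 1 TPM or more in every library of the other, 13 were at 0 in clone 1 and 3 in clone 2. Among all genes at 0.3 to 1 CPM in clone 3, 12.6% were at 0 in every clone 1 library and 0.744% in every clone 2 library. At 1 to 3 CPM these shares were 0.712% and 0.0647%, and their part in the single genes was not tested. The named genes at 0 in clone 1 included COQ10A, which works in coenzyme Q transport, at 1.95, 2.49, 1.9 and 2.64 TPM in clone 2 (adjusted p = 0.00271), UBXN10 at 3.82, 4.37, 3.87 and 2.48 TPM (adjusted p = 0.00194), the ion channel gene ASIC2 at 1.63, 1.69, 2.77 and 3.28 TPM (adjusted p = 0.00557) and the sperm protein gene SPA17 at 2.47, 1.87, 1.3 and 4.36 TPM (adjusted p = 0.00547). Clone 3 stood at 2.16 ± 0.33, 0.57 ± 0.156, 0.11 ± 0.118 and 1.51 ± 0.623 TPM for the same genes. A count of 0 in all 3 clone 1 libraries allows up to 3 counts over the group, or 0.0381 CPM, for counting error only. 

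One gene without a symbol of its own, LOC100513450 (chromosome X, 43489559 to 43496654), was named after its values were seen. It stood at 1156, 1233 and 1249 TPM in clone 1 and 76.95, 94.6, 70.8 and 109.9 TPM in clone 2 (3.95 ± 0.28, adjusted p = 7.52e-07), at 15020.0 ± 2452 TPM in clone 3 and at a mean of 2.84 TPM in fibroblasts. Of the 3 clones clone 3 was highest and clone 2 lowest, without overlap of clones 1 and 2.

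Calls were spread over the genome. Over chromosomes 1 to 18 and X, the median difference ran from -0.14 on chromosome X to 0.04 on chromosome 10, and from -0.03 on chromosome 9 to 0.11 on chromosomes 10 and 12 among genes at 10 TPM or more. The share called ran from 7.17% on chromosome 11 to 13.5% on chromosome 10. Chromosome Y, with 21 genes tested, had a median of 0.05, or 0.30 over its 8 genes at 10 TPM or more, and 4.76% called. Of 9 tested genes of X inactivation and of X and Y pairs 0 were called by edgeR and 0 by DESeq2, 2 had an unadjusted p under 0.05, and limma on the TPM scale called 1 lower.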
